A study of Mus musculus with 6 samples.

Results

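Stearoyl-CoA desaturases are enzymes of the endoplasmic reticulum that put a double bond into saturated acyl-CoAs, turning stearoyl-CoA into oleoyl-CoA and palmitoyl-CoA into palmitoleoyl-CoA. They take electrons from NADH through cytochrome b5 reductase and cytochrome b5, and their products go into triglycerides, phospholipids and cholesteryl esters. In the mouse the family has 4 genes: *Scd1* is the main form of liver and white fat, *Scd2* is known from brain and early development, *Scd3* from skin and Harderian gland, and *Scd4* from heart. All rows with these 4 symbols were taken from the deposited count table, which gave 5 rows of 37024 (19509 symbols), since *Scd3* has 2 rows. The family was chosen by the share of the counts that *Scd1* was already known to hold in every library, so that share is given as a description. The differences between groups were not used in the choice.

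The data are bulk RNA-Seq counts of inguinal white adipose tissue (iWAT) from C57BL/6 mice that had all received a Western diet for 12 weeks, with 3 biological replicates per group. The group labelled *Lexis*-AdKO carried floxed alleles of the long noncoding RNA *Lexis* together with Adipoq-cre, which is driven by the adiponectin promoter a gene of mature adipocytes, so other cells of the tissue are expected to keep the gene. The group labelled *Lexis*-AdWT consisted of littermates with the same floxed alleles and no Cre. The study gives a range of ages for most of its mice, but the sources used here do not state the sex or age of the mice behind these libraries.

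The libraries held between 14470542 and 17882713 counts. The targeted gene, taken here to be the lincRNA *4930412L05Rik* on chromosome 4, 45.2 kb from *Abca1*, had 8, 9 and 8 counts in AdWT against 21, 11 and 13 in AdKO. It was thus not lower under the knockout label at these few counts, and the groups are named by their labels throughout. The paper reports qRT-PCR in which *Lexis* was lost from adipose tissues of the knockout but kept in other organs. Which part of the gene the counts cover was not examined. Adipocyte markers were abundant in every library: 8 of the 9 markers with a row were above 0. Their summed level, as CPM (counts scaled to a common library size by the TMM method), lay between 66830 and 88171. Skeletal muscle markers summed to 30.8, 152 and 11.9 CPM in AdWT replicates 1, 2 and 3 and to between 2.63 and 3.49 CPM in AdKO. Macrophage markers summed to between 219 and 498 CPM, adipose progenitor markers to between 90.7 and 127 CPM, lymph node markers to between 8.32 and 21.5 CPM, and the liver marker *Ttr* reached 149 CPM in AdWT replicate 3. In bulk tissue, fewer cells of a type and less RNA per cell cannot be told apart.

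The 4 genes lie together on chromosome 19 of NCBIM37 (mm9) within 204.4 kb, and each has 6 exons in the GENCODE annotation of that build. In order along the chromosome they are *Scd3* (ENSMUSG00000025202.6, 44277759 to 44318506), *Scd2* (ENSMUSG00000025203.5, 44368166 to 44381354) and *Scd4* (ENSMUSG00000050195.8, 44407582 to 44421233), all on the plus strand, and *Scd1* (ENSMUSG00000037071.2, 44468941 to 44482199) on the minus strand. Their coding sequences are close to each other. In pairwise alignments, the coding bases of *Scd1* were 91.5% identical to *Scd3*, 90.4% to *Scd2* and 84.7% to *Scd4*. The longest run of bases shared without a mismatch was 185 for *Scd1* and *Scd3*, 147 for *Scd1* and *Scd2* and 116 for *Scd1* and *Scd4*.

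Stretches of the coding sequence where *Scd1* and *Scd3* are most and least alike are shown because they bear on how far a read can be assigned to 1 gene. Windows of 60 bases within 1 exon were ranked by the differences between these genes only. The aligned bases of *Scd2* and *Scd4* are given beside them. The first window with the fewest differences lies in exon 4. Each sequence is written 5′ to 3′ on the gene's own strand with capitals where it differs from *Scd1*.
Scd1 (chr19:44476296-44476355, minus strand): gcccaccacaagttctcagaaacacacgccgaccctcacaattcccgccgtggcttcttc
Scd2 (chr19:44374132-44374191, plus strand): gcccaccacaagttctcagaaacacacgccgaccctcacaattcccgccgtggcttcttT
Scd3 (chr19:44310294-44310353, plus strand): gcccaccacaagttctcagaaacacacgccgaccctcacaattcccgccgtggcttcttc
Scd4 (chr19:44413433-44413492, plus strand): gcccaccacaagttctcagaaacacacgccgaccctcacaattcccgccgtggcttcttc

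*Scd1*, *Scd3* and *Scd4* are identical over these 60 bases and *Scd2* differs at 1. The window with the most differences between *Scd1* and *Scd3* lies in exon 3. There *Scd2* differs from *Scd1* at 10 bases, *Scd3* at 18 and *Scd4* at 16.
Scd1 (chr19:44477726-44477785, minus strand): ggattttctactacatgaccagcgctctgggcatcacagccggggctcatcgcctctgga
Scd2 (chr19:44372530-44372589, plus strand): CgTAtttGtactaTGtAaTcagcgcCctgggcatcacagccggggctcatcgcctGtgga
Scd3 (chr19:44308713-44308772, plus strand): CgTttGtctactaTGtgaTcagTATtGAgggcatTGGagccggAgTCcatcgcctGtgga
Scd4 (chr19:44411991-44412050, plus strand): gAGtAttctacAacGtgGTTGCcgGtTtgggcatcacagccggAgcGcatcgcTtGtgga

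Over whole annotated transcripts, 4.86% of the runs of 50 bases in *Scd3* also occurred in *Scd1*, against 2.68% of those in *Scd2* and 2.58% of those in *Scd4*. Shared sequence is therefore a small part of each transcript at that length, but a small part of the *Scd1* reads would be large beside the counts of the other members, since 3.03% of the runs of 50 bases in *Scd1* also occurred in *Scd2*, 3.49% in *Scd3* and 1.76% in *Scd4*. The read length, and how reads that match several genes were counted, are not given in the sources used here, so the counts of *Scd2*, *Scd3* and *Scd4*, and their ratios to *Scd1*, are uncertain by an amount that was not tested.

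*Scd1*, the main desaturase of white fat, was the most abundant row in each of the 6 libraries. It had 2219761, 3127431 and 2290571 counts in AdWT replicates 1, 2 and 3, which is 15.1%, 17.5% and 14.9% of the library, and 2502073, 2418568 and 2383266 counts in AdKO replicates 1, 2 and 3, which is 17.3%, 15.9% and 14.9%. The 2 groups covered nearly the same range. These shares are of the summed counts of all rows, and some genes have no row or only rows at 0. Of the 13 adipocyte markers listed, for example, 9 had a row, and that of *Pnpla2* was at 0. The share and rank of *Scd1* therefore hold for the counted rows only, and the effect of missing counts on them was not tested. The row with the next highest total, *mt-Co1*, held 2.69% to 3.42% of a library, so that *Scd1* had between 4.37 and 5.81 times as many counts, not scaled for length. *Fabp4*, the fatty acid binding protein of adipocytes, held 2.83% to 3.42%, *mt-Nd5* 1.56% to 2.37% and *Car3* 1.43% to 2.35%.

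The *Scd1* share was 15.8% ± 1.43 (SD, n = 3) in AdWT and 16.04% ± 1.19 (SD, n = 3) in AdKO, a difference of 0.199 percentage points that was well inside the spread between replicates (two-sided exact permutation test, *p* = 1, with 0.1 the smallest *p* that 3 against 3 allow). Its sign turned when AdWT replicate 1, AdWT replicate 3 or AdKO replicate 1 was left out. On the CPM scale *Scd1* was at 161822 ± 22135 in AdWT and 158175 ± 14432 in AdKO (SD, n = 3). The log2 fold change, AdKO over AdWT, was -0.03 with a standard error of 0.205 (edgeR's quasi-likelihood test, Benjamini-Hochberg adjusted *p* = 0.983). The 95% interval of the fold, not adjusted for the number of rows, reached from 0.701 to 1.36.

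*Scd2*, which makes the same products, was far below *Scd1* but still among the abundant rows, at ranks 21 to 45. Its counts were 45183, 59632 and 30993 in AdWT replicates 1, 2 and 3 and 41377, 47251 and 54483 in AdKO replicates 1, 2 and 3, or 0.202% to 0.341% of a library. The lowest library was AdWT replicate 3. In counts and in CPM the AdKO libraries lay within the range of AdWT. By share AdKO replicate 3, at 0.341%, was above the highest AdWT library, replicate 2 at 0.333%. The level was 2865 ± 750 CPM in AdWT and 3077 ± 217 CPM in AdKO (SD, n = 3), a log2 fold change of 0.10 with a standard error of 0.188 (edgeR, adjusted *p* = 0.923). The 95% interval of the fold was 0.791 to 1.46, and the sign turned without AdWT replicate 3, at -0.093.

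*Scd3* stood apart from the other members by its spread. It had 901, 9378 and 5657 counts in AdWT replicates 1, 2 and 3 and 5574, 5808 and 931 in AdKO replicates 1, 2 and 3, which is 59.0, 561 and 379 CPM and 383, 383 and 55.9 CPM. One library of each group, AdWT replicate 1 and AdKO replicate 3, was low, and the other 4 were between 379 and 561 CPM. The highest library was 10.02 times the lowest over all 6, 9.51 times within AdWT and 6.85 times within AdKO, and the rank of *Scd3* among all rows moved between 212 and 2326. The second row of *Scd3* held 1 count, in AdKO replicate 2, and was not tested.

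With a low library in each group, the means of *Scd3* had wide SDs, at 333 ± 254 CPM in AdWT and 274 ± 189 CPM in AdKO (SD, n = 3). The log2 fold change was -0.28 with a standard error of 0.863 (edgeR, adjusted *p* = 0.963), and the 95% interval of the fold ran from 0.203 to 3.33. The value was -0.78 without AdWT replicate 1, 0.32 without AdWT replicate 2 and 0.20 without AdKO replicate 3. The highest library, AdWT replicate 2, was also the one with the highest muscle markers, whose part in the *Scd3* level was not tested.

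*Scd4* was the least abundant member, at ranks 4597 to 5286, with 108, 158 and 162 counts in AdWT replicates 1, 2 and 3 and 162, 135 and 118 in AdKO replicates 1, 2 and 3. Its level was 9.12 ± 1.91 CPM in AdWT and 9.04 ± 2.03 CPM in AdKO (SD, n = 3), and the groups overlapped. The log2 fold change was -0.01 with a standard error of 0.227 (edgeR, adjusted *p* = 0.992), and the 95% interval of the fold was 0.686 to 1.43. Of the heart muscle markers with a row, *Myh6* and *Myl7* were at 0 in all libraries and *Tnni3* was between 1.61 and 3.64 CPM. *Myh6* has 4 rows, and a value of 0 is not read here as a lack of expression.

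**Figure D1:**
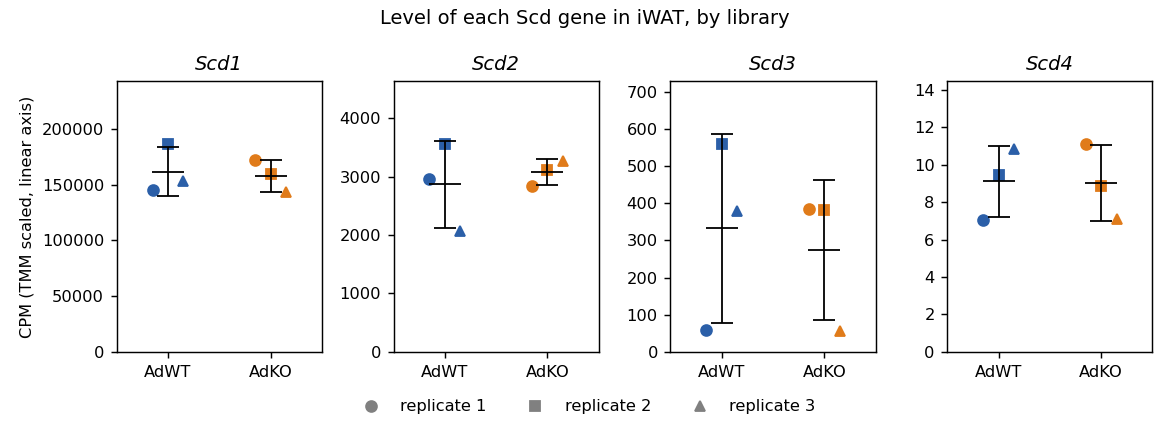
Level of each *Scd* gene (CPM, linear axis from 0, own scale per panel) in the 3 AdWT and 3 AdKO libraries, with the symbol giving the replicate and the bars the mean and SD. The groups overlap for all 4 genes, and *Scd3* has 1 low library in each group, AdWT replicate 1 at 59.0 CPM and AdKO replicate 3 at 55.9 CPM.

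None of the 4 members tested passed the adjusted threshold of 0.05, where 0 of all 9872 rows tested did (0%). At an unadjusted *p* under 0.05 edgeR gave 566 rows (5.73%), and DESeq2 called 27 of the 6891 rows to which it gave an adjusted *p* (0.392%), again with no *Scd* gene among either. All 4 members had overlapping groups, where 11.9% of the rows tested did not overlap. The median log2 fold change of the 4 was -0.02, beside 0.01 over all rows tested. A *p* above the threshold does not show that the groups were alike, and the intervals give the range of folds for each gene.

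Levels of the 4 genes can be set against each other within a library, per kilobase of the longest annotated coding transcript. Its length is 4836 bases for *Scd1*, 5453 for *Scd2*, 3486 for *Scd3* and 3306 for *Scd4*. *Scd3* has 3 annotated coding transcripts and the other members 1 each, so its values per kilobase depend on that choice. On this scale *Scd1* made up 97.9% to 98.5% of the family's counts per kilobase, *Scd2* 1.18% to 1.99%, *Scd3* 0.0531% to 0.407% and *Scd4* 0.00699% to 0.0102%. The order *Scd1*, *Scd2*, *Scd3*, *Scd4* was the same in every library, and no neighbours in it overlapped. The gap between *Scd1* and *Scd2* was 49.3- to 83.3-fold per kilobase, that between *Scd2* and *Scd3* 3.50- to 37.4-fold, and that between *Scd3* and *Scd4* 7.48- to 56.3-fold.

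The ratio of *Scd2* to *Scd1* covered a 1.69-fold range. In raw counts *Scd2* came to 2.04%, 1.91% and 1.35% of *Scd1* in AdWT replicates 1, 2 and 3 and to 1.65%, 1.95% and 2.29% in AdKO replicates 1, 2 and 3. The lowest library was an AdWT library and the highest an AdKO library, but the others overlapped. The log2 ratio was higher in AdKO by 0.16 (two-sided exact permutation test, *p* = 0.6), and by -0.017 without AdWT replicate 3.

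The ratio of *Scd3* to *Scd1* split as the level of *Scd3* did. *Scd3* was 0.0406%, 0.300% and 0.247% of the *Scd1* counts in AdWT replicates 1, 2 and 3 and 0.223%, 0.240% and 0.0391% in AdKO replicates 1, 2 and 3, a 7.68-fold range. Over the same libraries the CPM of *Scd1* covered a 1.31-fold range, so *Scd3* did not keep a fixed ratio to *Scd1*. The ratio of *Scd4* to *Scd1* covered a 1.45-fold range. None of these ratios separated the groups.

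**Figure D2:**
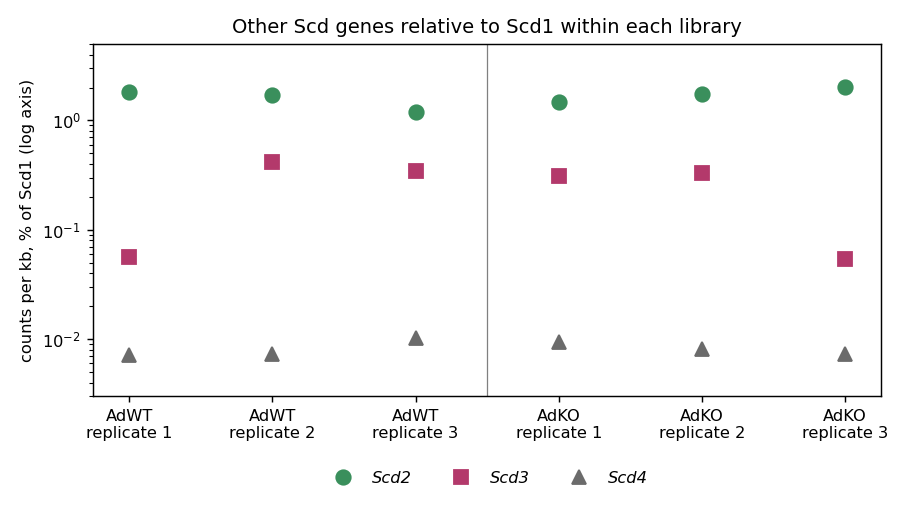
Counts per kilobase of *Scd2*, *Scd3* and *Scd4* as a percent of *Scd1* in the same library (log axis), for the 3 AdWT libraries on the left and the 3 AdKO libraries on the right. *Scd2* stays between 1.20% and 2.03% and *Scd4* near the bottom in every library, while *Scd3* is at 0.0563% in AdWT replicate 1 and 0.0542% in AdKO replicate 3, and the other 4 lie from 0.309% to 0.416%.

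The spread of *Scd3* between replicates was large for a gene of its level. The within-group SD of its log2 CPM was 1.67, above all but 24 of the 5383 rows with a mean of at least 100 counts, whose median was 0.136. The SD was 0.165 for *Scd1*, 0.290 for *Scd2* and 0.316 for *Scd4*. Among the 2103 rows with a mean of at least 1000 counts, only *Mycbp2* had a larger ratio of highest to lowest library, at 21.6, and its low libraries were AdKO replicate 2 and AdWT replicate 1, not the same pair as for *Scd3*.

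**Figure D3:**
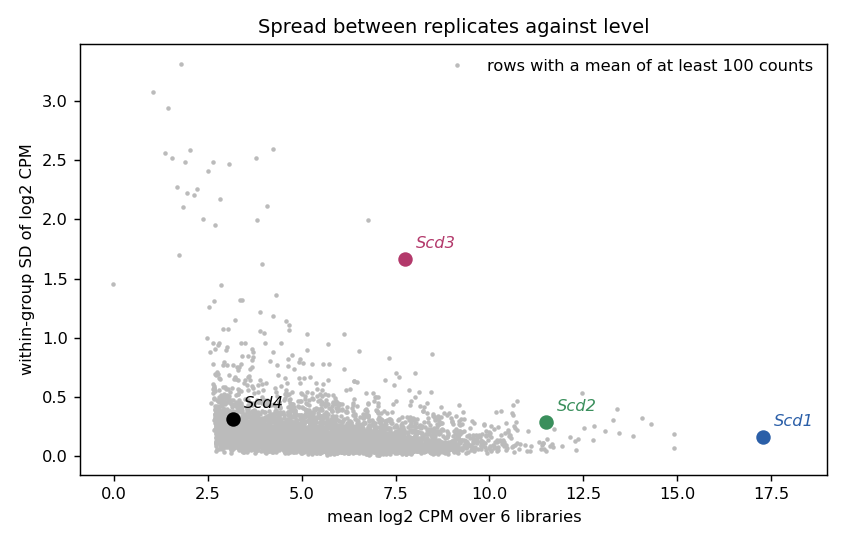
Within-group SD of log2 CPM against mean log2 CPM over the 6 libraries, with 1 grey point for each of the 5383 rows with a mean of at least 100 counts and the 4 *Scd* genes named. *Scd3* lies far above the rows of similar level at an SD of 1.67, and *Scd1*, at 0.165, is the most abundant row and near the median SD of 0.136.

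*Scd1*, *Scd3* and *Scd4* were each lowest, in CPM, in AdWT replicate 1 and AdKO replicate 3, whereas *Scd2* was lowest in AdWT replicate 3 and AdKO replicate 1. For *Scd1* this depended on the scaling: these 2 libraries had the highest TMM factors, 1.04 in both, and by plain share of the library AdWT replicate 3 was lower than AdWT replicate 1. For *Scd3* and *Scd4* the same 2 libraries were lowest on either scale. Over the 6 libraries Pearson's r of log2 CPM was 0.87 for *Scd3* and *Scd4*, 0.82 for *Scd1* and *Scd3*, 0.63 for *Scd1* and *Scd4*, 0.31 for *Scd1* and *Scd2*, -0.16 for *Scd2* and *Scd3* and -0.49 for *Scd2* and *Scd4*. These are descriptions of 6 points that share library scaling and, between paralogs, similar sequence.

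Of the genes on either side of the cluster, none with enough counts to tell had the pair of libraries low in *Scd3* as its lowest pair in CPM. *Cwf19l1* had between 239 and 288 counts and *Ndufb8* between 292 and 343 in all libraries. *Wnt8b*, a Wnt ligand, ranged from 85 to 302 counts with its highest value in AdKO replicate 2 and its lowest in AdKO replicate 3, which was also the lowest library of *Scd3*, while AdWT replicate 1 had 206 counts, the highest of AdWT. *Pkd2l1*, *Bloc1s2* and *Sec31b* had at most 14 counts, too few to tell.

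**Figure D4:**
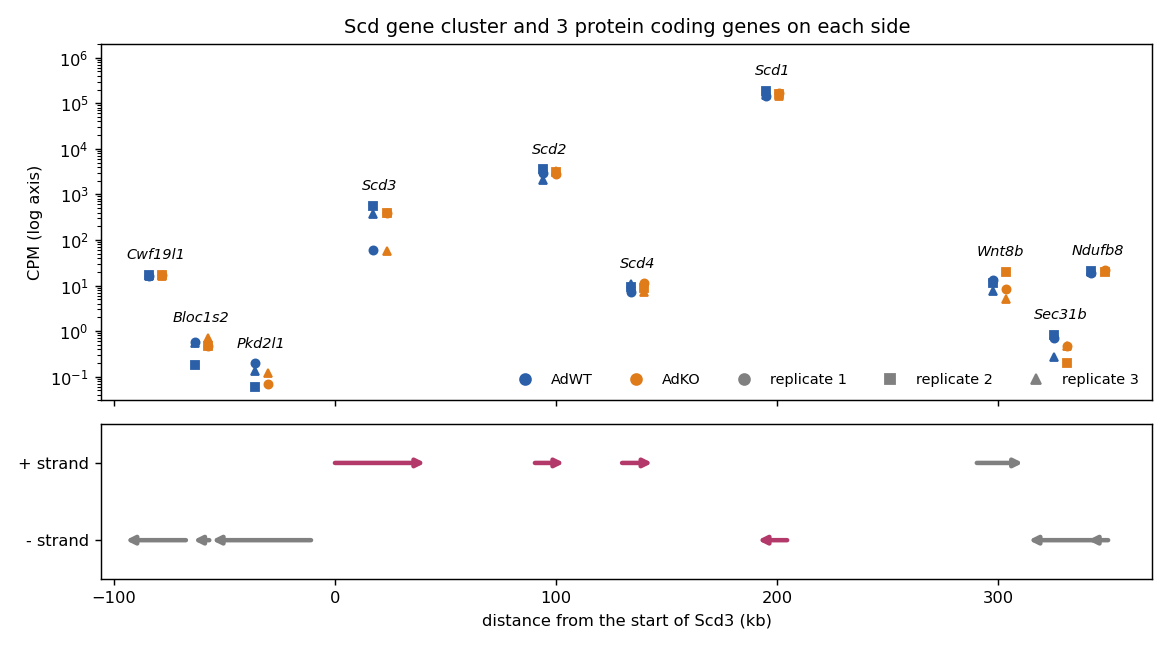
The 4 *Scd* genes and the 3 nearest protein coding genes on each side, with CPM per library above (log axis, colour for group, symbol for replicate, values of 0 not drawn) and gene extent and direction below, by distance from the start of *Scd3* in kb. Only *Scd3* within the cluster has 2 libraries, AdWT replicate 1 and AdKO replicate 3, well apart from the other 4.

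*Scd3* and *Scd1* are also genes of sebaceous glands and skin, so markers of these were examined beside them. The sum of the 6 markers with a row was 61.4, 60.1 and 47.2 CPM in AdWT replicates 1, 2 and 3 and 40.9, 70.0 and 55.1 CPM in AdKO replicates 1, 2 and 3. Most of it was *Krt79*, at 37.1 to 65.6 CPM, and the wax synthase *Awat1* was at or below 0.240 CPM in all libraries. The sum, carried by *Krt79*, was lowest in AdKO replicate 1. The melanocortin receptor *Mc5r* was lowest in AdWT replicate 1, at 2.75 CPM against 3.51 to 4.51 CPM in the others. Its highest value, 4.51 CPM, was in AdKO replicate 3, the other library low in *Scd3*. The keratins *Krt5* and *Krt14* of basal epidermis were highest in AdKO replicate 3, at 4.75 and 1.14 CPM. The part of skin or gland tissue in the *Scd3* level was not tested.

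*Scd1* was also set against the adipocyte content of each library. The log2 ratio of *Scd1* to the summed adipocyte markers was 1.03, 1.18 and 0.80 in AdWT replicates 1, 2 and 3 and 1.26, 1.22 and 1.0995 in AdKO replicates 1, 2 and 3. It was lowest in AdWT replicate 3 and overlapped between groups at AdWT replicate 2. The difference, AdKO minus AdWT, was 0.19 (two-sided exact permutation test, *p* = 0.2), and 0.085 without AdWT replicate 3. Against *Adipoq* alone the difference was 0.22, and against the geometric mean of the markers it was 0.037. Against *Plin1* alone, the perilipin of the adipocyte lipid droplet, the difference was -0.13. Its size thus rests on which markers are used, and its direction turned only with *Plin1*. *Plin1* has 5 rows and the row used was at only 34.0 ± 3.15 CPM in AdWT and 36.4 ± 1.97 CPM in AdKO (SD, n = 3), so it may be undercounted as other symbols with several rows may be. Within the sum, *Fabp4* and *Lep* were lower in AdKO with groups that did not overlap, at log2 fold changes of -0.23 (edgeR, adjusted *p* = 0.853) and -0.46 (edgeR, adjusted *p* = 0.851). *Pck1*, the phosphoenolpyruvate carboxykinase of adipocyte glycerol synthesis, was higher in AdKO, also without overlap, at 95.6 ± 9.40 CPM in AdWT and 151 ± 36.8 CPM in AdKO (SD, n = 3), a log2 fold change of 0.66 (edgeR, adjusted *p* = 0.817). These were 3 of the 8 markers tested, beside 11.9% of all rows.

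None of the genes that feed electrons to the desaturases passed the adjusted test, and their estimates went both ways. Of 6 genes listed, 5 had a row and all 5 were tested, 1 with a higher and 4 with a lower estimate in AdKO. Their median log2 fold change was -0.08 beside 0.01 over all rows, and it ranged from -0.23 to -0.053 when single libraries were left out. *Cyb5a*, the cytochrome b5 of the endoplasmic reticulum and the direct electron donor of the family, is in the table under its older symbol *Cyb5* and was the most abundant of the list. It was at 775 ± 115 CPM in AdWT and 733 ± 69.8 CPM in AdKO (SD, n = 3), a log2 fold change of -0.08 (edgeR, adjusted *p* = 0.913) that was 0.025 without AdWT replicate 3. *Cyb5b*, the cytochrome b5 of the outer mitochondrial membrane, was at 177 ± 22.9 CPM in AdWT and 145 ± 15.7 CPM in AdKO (SD, n = 3), a log2 fold change of -0.29 (edgeR, adjusted *p* = 0.851) that was -0.19 without AdWT replicate 2. *Cyb5r4*, a cytochrome b5 reductase, was at 8.20 ± 0.701 and 6.65 ± 0.513 CPM, a log2 fold change of -0.30 (edgeR, adjusted *p* = 0.851). The groups of *Cyb5b* and *Cyb5r4* did not overlap, as was so for 11.9% of all rows tested, and both genes were named for having the smallest *p* of the list. *Cyb5r1*, another reductase, was higher in AdKO by a similar amount, at 8.15 ± 1.61 and 10.3 ± 0.912 CPM, a log2 fold change of 0.33 (edgeR, adjusted *p* = 0.853), with overlapping groups. *Cyb5r3* had a log2 fold change of -0.05 (edgeR, adjusted *p* = 0.980).

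The other desaturases of the list, which act on polyunsaturated acyl-CoAs or on sphingolipids, were split evenly, with 3 of 6 higher and 3 lower in AdKO and a median of 0.02. *Fads3* was the most abundant of them and the only one whose groups did not overlap: it was at 2316, 2415 and 2430 CPM in AdWT replicates 1, 2 and 3 and at 1991, 2022 and 1891 CPM in AdKO replicates 1, 2 and 3. All 3 AdKO libraries lay below all 3 AdWT libraries, and groups that did not overlap, in either direction, made up 11.9% of all rows tested. The log2 fold change was -0.28 with a standard error of 0.0791, which did not pass after adjustment (edgeR, adjusted *p* = 0.847). *Fads2*, the first desaturase of polyunsaturated fatty acid synthesis, had a log2 fold change of -0.22 (edgeR, adjusted *p* = 0.853).

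Of 17 genes that supply saturated acyl-CoA, 15 had a row, 8 were tested, 5 had a higher and 3 a lower estimate in AdKO, and the median was 0.05. *Fasn*, the fatty acid synthase that makes palmitate, was the most abundant at 10427 ± 2515 CPM in AdWT and 9755 ± 1451 CPM in AdKO (SD, n = 3), a log2 fold change of -0.10 (edgeR, adjusted *p* = 0.936) that became 0.050 without AdWT replicate 2. *Acacb*, an acetyl-CoA carboxylase, had a log2 fold change of -0.24 (edgeR, adjusted *p* = 0.859), which ranged from -0.40 to -0.086 with single libraries left out, the weakest without AdKO replicate 1. *Elovl3*, a fatty acid elongase, had a log2 fold change of 0.84 at a level of 0.919 ± 0.0834 CPM in AdWT and 1.63 ± 0.704 CPM in AdKO (edgeR, adjusted *p* = 0.851).

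*Me1*, *Elovl1*, *Elovl7* and *Acsl3* of that list were listed at 0 in all libraries, and *Elovl6*, the elongase that makes stearoyl-CoA from palmitoyl-CoA, had at most 1.14 CPM. Rows at 0 were frequent among symbols with several rows, at 53.6% of such rows against 31.8% of symbols with 1 row. A low value of *Elovl6*, which has 3 rows, is therefore not read here as low expression. Nor are the values at 0 of the other genes named, among which *Elovl1* has 1 row.

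Of 9 genes that put monounsaturated acyl-CoA into lipids, 7 had a row, 5 were tested, 1 had a higher and 4 a lower estimate in AdKO, and the median was -0.13. *Lpin1*, a phosphatidate phosphatase, was at 6.95 ± 1.15 CPM in AdWT and 4.21 ± 0.404 CPM in AdKO (SD, n = 3), a log2 fold change of -0.72 (edgeR, adjusted *p* = 0.817). *Gpam*, the mitochondrial glycerol-phosphate acyltransferase, was at 7.36 ± 0.404 and 9.78 ± 1.06 CPM, a log2 fold change of 0.41 (edgeR, adjusted *p* = 0.851). The groups did not overlap for either, beside 11.9% of all rows tested, and both were named for having the smallest *p* of the list. *Gpam* has 4 rows, and with them summed its log2 fold change was 0.22. *Dgat2*, which makes triglyceride from diacylglycerol and was the most abundant of the list, was at 7292 ± 882 and 6662 ± 418 CPM, a log2 fold change of -0.13 (edgeR, adjusted *p* = 0.885). This value, which is also the median of the list, was -0.031 without AdWT replicate 2.

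Of 21 regulators of *Scd1* transcription, 15 had a row and 10 were tested, 5 with a higher and 5 with a lower estimate in AdKO, and the median was -0.02. *Insig1*, which holds the SREBP precursors in the endoplasmic reticulum and is itself an SREBP target, was the most abundant, with a log2 fold change of -0.06 (edgeR, adjusted *p* = 0.932) that was 0.091 without AdWT replicate 2. *Rxra*, the partner of LXR and PPAR receptors, had a log2 fold change of -0.09 (edgeR, adjusted *p* = 0.885), and *Thrb*, a thyroid hormone receptor, of -0.49 at 2.01 ± 0.505 and 1.43 ± 0.519 CPM (edgeR, adjusted *p* = 0.855), or -0.23 without AdKO replicate 2. *Ppargc1b*, *Nfya*, *Sp1* and *Thra* were listed at 0 in all libraries. *Thra* has 1 row and the others have several, and these values are not read here as a lack of expression. In none of the 5 lists did any gene pass the adjusted test, as in the table as a whole.

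**Figure D5:**
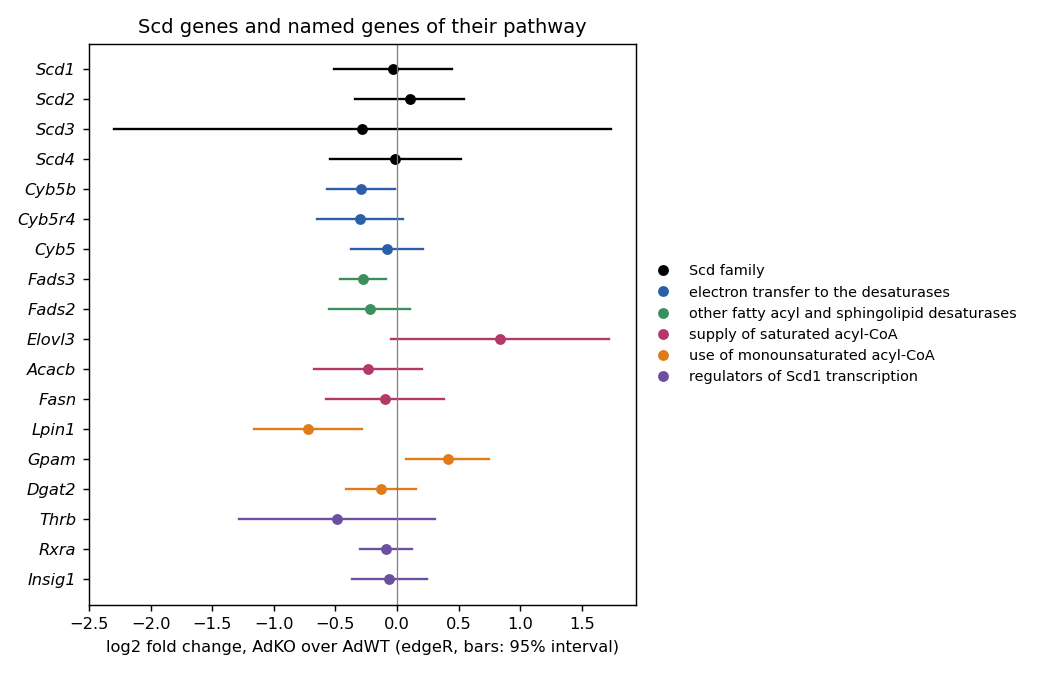
Log2 fold change, AdKO over AdWT, of the 4 *Scd* genes and of 14 named genes from the 5 pathway lists, with points for the edgeR estimate, lines for the 95% interval and colour for the list. The intervals of the *Scd* genes all span 0, widest for *Scd3*, and *Cyb5b*, *Fads3*, *Lpin1* and *Gpam* have intervals that exclude 0 before adjustment.

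Finally, the rows whose log2 CPM followed *Scd1* and *Scd2* most closely over the 6 libraries were sought among 5382 others. For *Scd1* they were *Tpmt* (Pearson's r 0.998), *Zfp81* (0.976), *Pmpca* (0.961), *Dhx37* (0.951) and *Alkbh5* (0.949), of which only *Tpmt* and *Zfp81* stayed among the first 5 when scaled by library size alone. *Tpmt*, a thiopurine methyltransferase, had 141, 203 and 147 counts in AdWT replicates 1, 2 and 3 and 160, 155 and 154 in AdKO replicates 1, 2 and 3. For *Scd2* they were *Sh3bgrl* (0.993), *Lin7c* (0.989), *Ppp1cb* (0.988), *Ndufaf4* (0.987) and *Lypla1* (0.986), of which *Sh3bgrl* and *Lin7c* left the first 5 under library size scaling. *Lypla1*, an acyl-protein thioesterase, had 1214, 1545 and 658 counts in AdWT replicates 1, 2 and 3 and 1042, 1285 and 1427 in AdKO replicates 1, 2 and 3, with the low value in AdWT replicate 3 as for *Scd2*. With 5382 rows and 6 points high values of r arise easily, and these are given as a description only.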

How the data were processed

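RNA from iWAT of 3 *Lexis*-AdWT and 3 *Lexis*-AdKO mice was sequenced from KAPA stranded libraries. The authors aligned reads with HISAT2 to mm9 and deposited raw counts per row without normalization. The counting tool and annotation are not given in the sources used here. Positions and sequences were read from NCBIM37 with GENCODE vM1.

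Counts over the whole table were compared with edgeR 4.0.16 (R 4.3.3; filterByExpr, TMM, glmQLFit and glmQLFTest) and adjusted by the Benjamini-Hochberg method over 9872 rows, with a threshold of 0.05. DESeq2 1.42.0 was an alternative, with independent filtering at the same threshold. Log2 CPM used a prior count of 2. Single values were compared by exact permutation, on the percent for the *Scd1* share and on log2 ratios of raw counts for the ratios. Nothing was added to these counts, except 0.5 to the marker counts for their geometric mean. Standard errors were derived from the estimate and the test's F statistic, and the 95% interval uses the test's degrees of freedom. Both tools were first tested on simulated counts with known changes. A symbol with more than 1 row is represented by its most abundant row, and list genes without a row were sought under older RefSeq symbols, which matched 2 of them.

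The members, lists and rules were chosen with earlier results of these data known. Genes named are the 4 members, from each pathway list the 2 tested genes with the smallest *p* and the most abundant, the 5 most abundant rows, the 5 rows most like *Scd1* and *Scd2*, and the targeted gene. Neighbours, *Cyb5r1*, *Cyb5r3*, *Elovl6*, *Mycbp2* and single cell type markers were named after their values were seen. Promoters and proteins were not used here. Figures were drawn with matplotlib 3.10.9.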

Additional observations from a re-analysis of the deposited data

How the results depend on the processing

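No *Scd* gene passed the adjusted threshold under any of 15 alternatives, with adjusted *p* values of 0.823 to 0.999 for *Scd1*, 0.833 to 0.999 for *Scd2*, 0.680 to 0.999 for *Scd3* and 0.776 to 0.99998 for *Scd4*, from edgeR or DESeq2. Signs close to 0 turned. With library size scaling, which moved the median over all rows from 0.0071 to 0.054, the log2 fold change was 0.018 for *Scd1* and 0.037 for *Scd4*. Leaving out 1 library at a time gave -0.10 to 0.079 for *Scd1*, -0.093 to 0.29 for *Scd2*, -0.78 to 0.32 for *Scd3* and -0.19 to 0.14 for *Scd4*. It gave -0.427 to 1.02 percentage points for the *Scd1* share and -0.017 to 0.28 for the log2 ratio of *Scd2* to *Scd1*. For *Scd1* per adipocyte marker it gave 0.085 to 0.28. That ratio differed by 0.22 with *Adipoq* alone, -0.13 with *Plin1* alone and 0.037 with the geometric mean of the markers. *Cidec*, listed as another single marker, was not run. With single libraries left out, the median of the list that supplies saturated acyl-CoA ranged from -0.086 (without AdWT replicate 3) to 0.067, and it was 0.0995 with library size scaling, which includes the same shift. In the same way *Fasn* ranged from -0.29 to 0.050, *Insig1* from -0.17 to 0.091, *Cyb5a* from -0.18 to 0.025, *Fads2* from -0.34 to -0.13 and *Rxra* from -0.16 to -0.023, while the list medians near 0 ranged from -0.041 to 0.050 for the other desaturases and from -0.075 to 0.057 for the regulators. Rows past the adjusted threshold numbered 27 with DESeq2, 1 with every row of 1 or more counts in some library kept, and 0 to 1 with a library left out, and rows with an unadjusted *p* under 0.05 numbered 329 (without AdWT replicate 2) to 1208 (without AdWT replicate 1). Leaving *Scd1* out of the library sizes left that count at 566. The cause of these changes was not tested.

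Samples of the same number deviated with correlations of -0.0764, -0.132 and 0.330, so the numbers were not taken to pair them. The replicate block gave 418 rows with an unadjusted *p* under 0.05 and 0 past the adjusted threshold, and log2 fold changes of -0.03, 0.13, -0.30 and -0.02 for *Scd1* to *Scd4*. With 3 libraries per group the intervals are wide, and they are not adjusted for the number of rows. The depth of *Scd4*, at most 162 counts, adds counting error.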
